A study of Mus musculus with 12 samples.

Results

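The comparison of PRMT1-depleted with control 3T3-L1 cells at day 3 of adipogenic induction rests on 6 of the 12 mRNA libraries of the study, 3 labelled siPRMT1 and 3 labelled siCtrl, each taken after 72 h in DMI. DMI is the usual cocktail of dexamethasone, 3-isobutyl-1-methylxanthine and insulin (MDI in the sample labels), and 3T3-L1 is a mouse preadipocyte line that this cocktail turns into adipocytes. The cells had been transfected with a PRMT1 siRNA or with a nontargeting siRNA (NC in the labels), carried no other stated genetic change, and came from the source that the labels call preadipocytes. The remaining 6 libraries are the same siRNA pair at 24 h, day 1, when the cells go through mitotic clonal expansion, and they served only to ask whether an effect of the knockdown at day 3 was also seen earlier. Of the 39423 genes in the table, the 14039 that passed a filter on low counts over the 6 day 3 libraries were tested, and these are the genes described. Total counts on genes ran from 15116462 to 26106749 per day 3 library. One library, siCtrl replicate 3 of day 1, stood apart from its group, further than any day 3 library. Between replicates, the chi-square per gene was 30.8 and 50.6 in the pairs that hold this library and 4.14 to 15.8 in all other pairs. Comparisons with day 1 are therefore also given without it. At day 3, the siPRMT1 pairs that hold replicate 1 had 10.4 and 15.8, and the pair without it had 5.58. The labels do not say whether the 3 replicates came from separate cultures, so the p-values measure the spread between these libraries, which may be technical.

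White adipocytes store fatty acids as triglyceride in lipid droplets coated by perilipins, and release them again through a chain of lipases. PPARγ and C/EBPα switch on the genes for both tasks, for insulin-regulated glucose uptake and for secreted adipokines, while the preadipocyte programme of matrix proteins, growth factor receptors and contractile fibres recedes. PRMT1 is the main enzyme that places asymmetric dimethylation on arginines of histones and other proteins, and was examined here as a regulator of that switch.

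The cells carried the markers their label calls for. Summed over 8 adipocyte markers, the deposited FPKM (counts scaled by library size and by gene length, the scale on which genes can be compared) lay between 2134 and 2344 in siCtrl and between 1706 and 1850 in siPRMT1 libraries. Over 8 fibroblast or preadipocyte markers the sums were 1473 to 1645 in siCtrl and 1943 to 2000 in siPRMT1 libraries. By the calls defined below, 5 of the 8 adipocyte markers were lower and 0 higher. Of the 8 fibroblast or preadipocyte markers 1 was called higher and 0 lower. A large part of the adipocyte sum was Fabp4, which was not called (mean 954 FPKM in siCtrl and 874 FPKM in siPRMT1 libraries). The defining markers of other lineages were at or near 0 in all 6 libraries, with 0 counts of the leukocyte gene Ptprc, of the endothelial Cldn5 and of the muscle genes Myod1 and Myog, 2 counts of the endothelial Kdr in a single library and 1 count of the epithelial Epcam in another. The lists of osteoblast or chondrocyte and of epithelial markers, of which 2 genes each passed the filter, summed to no more than 12.9 and 11.4 FPKM in siCtrl and to no more than 7.18 and 6.63 FPKM in siPRMT1 libraries. Of these genes both epithelial ones and 1 of the other pair were called lower. The skeletal muscle list, of which 3 genes passed and 1 was called lower, the filament protein desmin (Des, -0.77), summed to 11.1 to 14.1 FPKM in siCtrl and 10.1 to 10.9 FPKM in siPRMT1 libraries. As in any bulk sample, fewer adipocytes and less adipocyte RNA per cell cannot be told apart in what follows.

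The study lists 3 siRNA duplexes against Prmt1, and its text does not say which was used for the sequenced cells. All 3 are given because they define the treatment. Each is printed as its antisense (guide) strand, 5′ to 3′, with bases 2 to 8, the seed, in capitals.
siPRMT1-1: aAGAGAUGccgauugugaaacaugg
siPRMT1-2: uUGGCAUUgggccucauuccaaugg
siPRMT1-3: uUAUAUUGucgguccucaauggcug
Matched to the GENCODE transcript Prmt1-203 on GRCm38, all target the coding sequence of the minus strand, siPRMT1-1 in exon 3 (chr7:44981826-44981850), siPRMT1-3 in exon 6 (chr7:44978900-44978924) and siPRMT1-2 in exon 9 (chr7:44977511-44977535).

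The targeted gene itself was lower, as its label states. Prmt1 (chromosome 7, 44976755 to 44986420) was at 111, 120.4 and 140.2 FPKM in siCtrl and at 62.02, 71.7 and 68.5 FPKM in siPRMT1 libraries, so that even the highest siPRMT1 library stayed below the lowest siCtrl library, and 1.85-fold separated the fitted levels (log2 fold change -0.88, SE 0.088, adjusted p = 1.2e-05, edgeR's quasi-likelihood test with Benjamini-Hochberg adjustment over all genes tested, as for every adjusted p below). Of 13 tested members of the list of PRMT enzymes and their partners, Prmt1 was the only one called, and the median of the list was 0.02 on the log2 scale against 0.01 over all genes. Prmt5, the main enzyme of symmetric dimethylation, had a log2 fold change of -0.24 (adjusted p = 0.0295), under the fold threshold. Carm1 had -0.01, Prmt6 0.02, Prmt7 0.00 and Prmt3 0.07. Prmt8, the neural relative closest to Prmt1, had 0 counts in all 6 libraries, and 3 counts, the most that a count of 0 allows, would be between 0.115 and 0.198 CPM (counts scaled to a library's total) in these libraries.

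Calls required that the adjusted p was below 0.05 and that the log2 fold change exceeded 0.5 in size. By this rule 399 genes, 2.84% of those tested, were higher after the knockdown and 534, 3.80%, were lower. Together they made up 6.65% of the genes, the share over all genes that stands beside the counts of every gene group below. The gene lists were chosen with earlier results of these data known, so their counts are descriptions and no independent test. Of the 926 tested genes on the 52 lists, counted once, 65 were called higher and 85 lower. All 3 siPRMT1 values lay outside the range of the siCtrl values on one side in 34.9% of all genes tested, above it in 16.8% and below it in 18.1%. The log2 fold change was positive in 51.3% and negative in 48.7% of the genes, the unadjusted p was below 0.05 in 31.3%, and the adjusted p alone, at any fold change, was below it in 16.5%. Changes were mostly of moderate size: the median called gene rose 1.62-fold or fell 1.69-fold, and 80 higher and 144 lower genes exceeded a 2-fold change. Over the 500 most variable genes, the first principal component held 59.3% of the variance and put all siCtrl libraries on one side and all siPRMT1 libraries on the other.

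**Figure D1:**
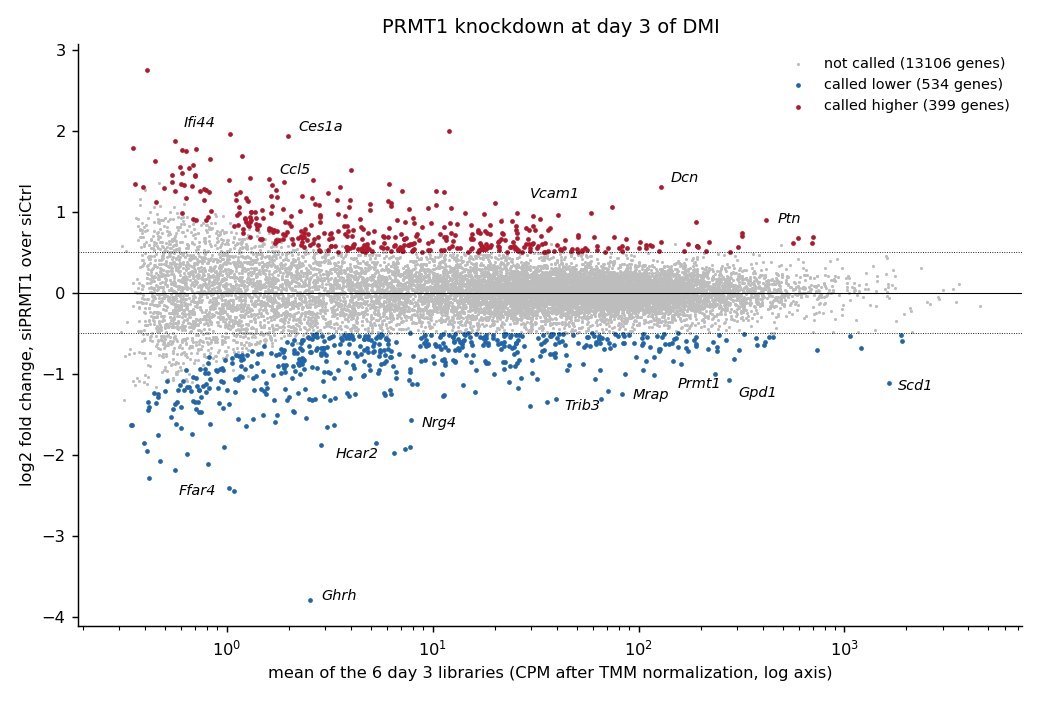
Each point is 1 of the 14039 genes tested at day 3, placed by its mean over the 6 libraries (CPM after TMM normalization, log axis) and by its log2 fold change of siPRMT1 over siCtrl, with the fold threshold of 0.5 as dotted lines. Red points are the 399 genes called higher and blue points the 534 called lower. The lower genes reach further from 0 than the higher ones, down to -3.79 for Ghrh, and called genes occur at nearly every level of expression, from 0.34 CPM to 1893 CPM.

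**Figure D2:**
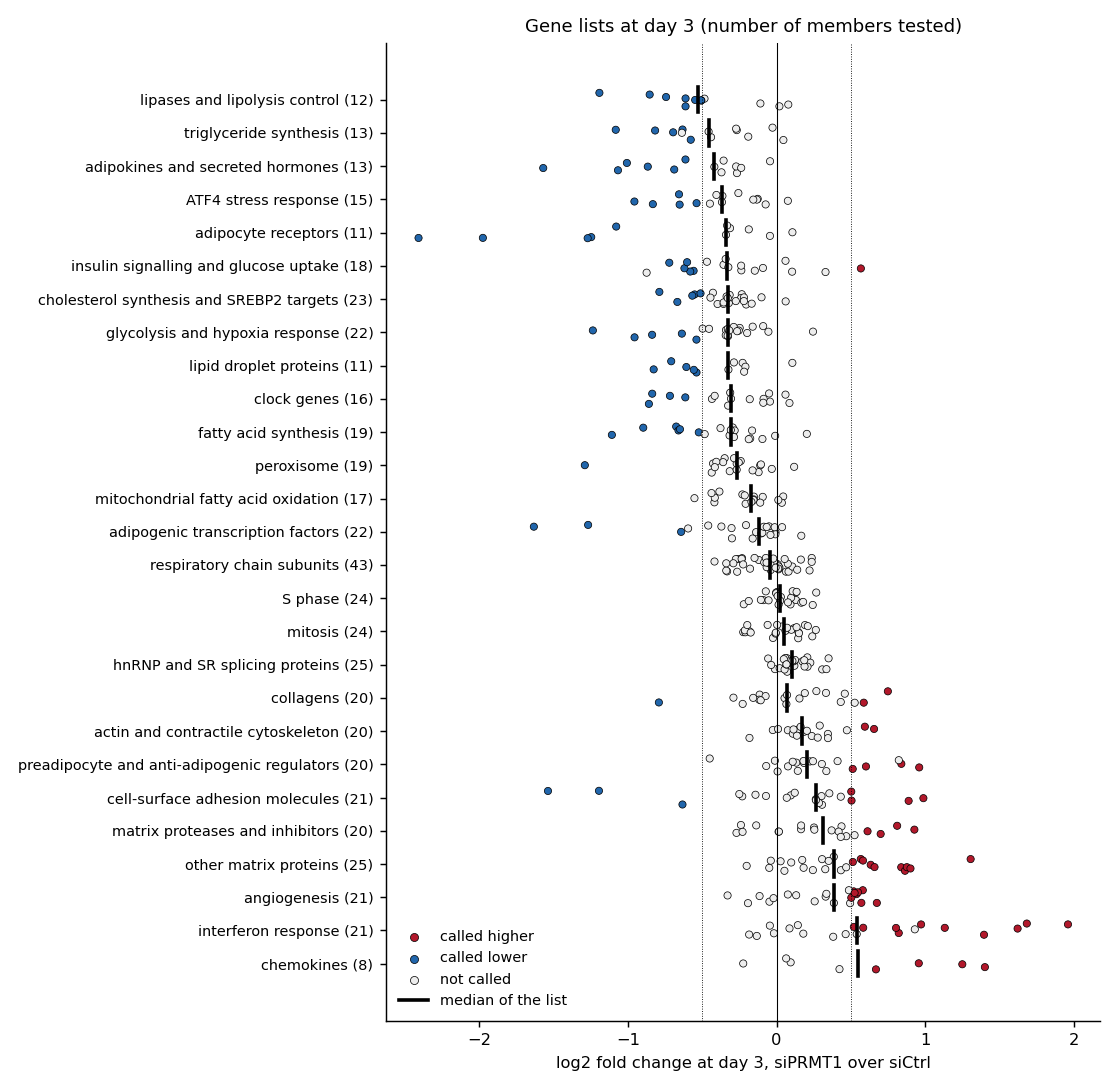
Log2 fold change at day 3 of every tested member of 27 of the 52 gene lists, with the number of members tested in parentheses. Blue and red points passed the thresholds, light grey points did not, and the black bar is the median of the list. Medians of the lists of lipid, glucose, sterol and stress genes lie to the left of 0. Those of the proliferation, splicing and collagen lists lie near 0, and those of the other matrix, angiogenesis, interferon and chemokine lists to the right.

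Among 22 adipogenic transcription factors, 3 were called lower, 0 higher, and 20 had a negative log2 fold change, with a median of -0.12. Klf15, a late zinc-finger factor of adipocytes that drives glucose transporter expression, was at 2.81, 2.9 and 3.02 FPKM in siCtrl and 1.39, 1.1 and 1.16 FPKM in siPRMT1 libraries (log2 fold change -1.27, SE 0.114, adjusted p = 4.2e-06). The 3 siCtrl libraries were close to each other, and the groups did not overlap. Nr1h3, the oxysterol receptor LXRα, fell by 0.64 on the log2 scale (adjusted p = 4.1e-05), and Mlxipl, the glucose-responsive factor ChREBP, by 1.63 from a level of no more than 0.13 FPKM. The factors at the top of the programme differed by less. Pparg went from 115, 110.3 and 111 to 89.3, 93.1 and 91.7 FPKM, which passed the adjusted p (0.0041) but at -0.30 not the fold threshold. The same held for Cebpa at -0.46 (adjusted p = 4.0e-04). Cebpb had 49.8, 70.2 and 42.4 FPKM in siCtrl and 37.99, 55.8 and 51.5 FPKM in siPRMT1 libraries, and its groups overlapped (-0.16, adjusted p = 0.517).

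Several of the steepest falls were in receptors and secreted hormones. Of 11 tested adipocyte receptors 5 were called lower and 0 higher. Hcar2 (chromosome 5, 123863570 to 123865516), the receptor for nicotinic acid and ketone bodies that restrains lipolysis, was at 5.24, 5.4 and 5.2 FPKM in siCtrl and 1.4, 1.06 and 1.58 FPKM in siPRMT1 libraries (log2 fold change -1.98, SE 0.144, adjusted p = 8.1e-07). Its 3 siCtrl libraries were close together and all lay above 5 FPKM, far from the highest siPRMT1 library. Hcar1, a related receptor for lactate, fell by 1.08, and Ffar2, which senses short-chain fatty acids, by 1.27. Ffar4, the long-chain fatty acid receptor GPR120, was low in both groups and fell from 1.14, 1.52 and 1.08 to 0.13, 0.22 and 0.32 FPKM (log2 fold change -2.41, SE 0.309, adjusted p = 8.5e-05). Mrap, the accessory protein that carries the ACTH receptor to the membrane, fell by 1.25 from a much higher level of 114, 129 and 110 FPKM. Of the genes that reached 1 CPM on average, the one that fell furthest was Ghrh, the hypothalamic growth hormone-releasing hormone, from 1.91, 2.11 and 1.31 to 0.14, 0.06 and 0.18 FPKM (log2 fold change -3.79, SE 0.3, adjusted p = 1.5e-06). Gpr35, an orphan-class receptor that responds to kynurenic acid, fell by 1.65, and Gprc5c, a retinoic acid-inducible receptor, by 1.88. Other large or well-supported falls were those of the carbonic anhydrase Car12 (-2.44), the dexamethasone-induced small GTPase Rasd1 (-1.91), the glycogen-targeting phosphatase subunit Ppp1r3b (-1.85), the secreted semaphorin Sema3g (-1.31), the adhesion receptor Adgrf5 (-1.22) and the sterol transfer protein Gramd1b (-1.01). Sema3g had the smallest p of all lower genes, with 20.01, 20.8 and 20.1 FPKM in siCtrl and 8.03, 7.77 and 8.78 FPKM in siPRMT1 libraries.

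All 13 tested adipokines and secreted hormones had a negative log2 fold change (median -0.42), and 6 of them were called lower. Nrg4, a neuregulin secreted by thermogenic and white fat, was at 3.49, 3.45 and 3.64 FPKM in siCtrl and 1.23, 0.97 and 1.39 FPKM in siPRMT1 libraries (log2 fold change -1.57, SE 0.134, adjusted p = 2.5e-06). Apelin, Apln, fell from 25.4, 26.8 and 26.7 to 12.8, 11.7 and 13.3 FPKM (log2 fold change -1.07, SE 0.078, adjusted p = 8.1e-07). In both genes the 3 libraries of a group stood close together and far from the other group. Cfd, the complement protease adipsin, and Adipoq, adiponectin, fell by 1.01 and 0.69 from over 100 FPKM. The other called members were stanniocalcin 1, Stc1 (-0.87), and the Wnt-binding Sfrp5 (-0.61), which only 1 of the 6 fits that left out a library still called.

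Lipid handling was lower across its steps. None of the 69 tested genes on the 5 lists from fatty acid synthesis to fatty acid uptake was called higher. In fatty acid synthesis 6 of 19 genes were called lower and in 15 of 19 all siPRMT1 libraries lay below all siCtrl libraries, against 18.1% over all genes (median -0.31). Scd1, the stearoyl-CoA desaturase and the most abundant transcript of this list, Fasn, the fatty acid synthase, and Thrsp, the lipogenic Spot 14 protein, had log2 fold changes of -1.108, -0.68 and -0.90. The other called members were the desaturases Scd2 (-0.52) and Scd3 (-0.65) and the mitochondrial citrate carrier Slc25a1 (-0.66). Fasn was at 141, 162 and 144 FPKM in siCtrl and at 83.2, 94.8 and 103 FPKM in siPRMT1 libraries, without overlap (adjusted p = 7.3e-05). Triglyceride synthesis had 5 of 13 genes called lower (median -0.46), led by Gpd1, which supplies the glycerol backbone, at 121, 153 and 129 FPKM in siCtrl and 57.99, 65.1 and 68 FPKM in siPRMT1 libraries (log2 fold change -1.08, SE 0.092, adjusted p = 2.5e-06). Agpat9, the acyltransferase GPAT3 of the initial acylation step, and Dgat2, of the final one, fell by 0.70 and 0.82. Lpin1, the phosphatidate phosphatase between them, fell by 0.63 and the glycerol channel Aqp7 by 0.58.

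Among lipid droplet proteins 5 of 11 were called lower (median -0.32): G0s2 and Hilpda, both inhibitors of the lipase ATGL, the perilipin Plin1, Cidec and seipin, Bscl2. G0s2, at 303, 337 and 346 FPKM in siCtrl, was at 215, 227 and 208 FPKM in siPRMT1 libraries (log2 fold change -0.61, SE 0.074, adjusted p = 5.2e-05), and Cidec, which fuses droplets, fell by 0.54, a call that 5 of 6 fits without 1 library kept. The list of lipases and lipolysis control had the lowest median of the 52 lists, -0.53, with 8 of 12 genes called lower. Mgll, monoglyceride lipase, was at 5.96, 5.98 and 6.54 FPKM in siCtrl and 3.35, 3.48 and 3.45 FPKM in siPRMT1 libraries (log2 fold change -0.85, SE 0.086, adjusted p = 1.2e-05), and Lipe, hormone-sensitive lipase, fell by 0.61. Pde3b, the phosphodiesterase through which insulin stops lipolysis, fell by 0.51. The fall of Pnpla2, ATGL itself, was smaller (-0.55) and was called in 4 of 6 fits without 1 library, as was that of the carboxylesterase Ces1f (-0.51). Of the genes of uptake and binding 2 of 14 were called lower: Acsl1, which activates fatty acids to CoA esters (-0.60), and the caveolar Sdpr (-0.56). Fabp4, the fatty acid binding protein of adipocytes, was at 899, 933 and 1030 FPKM in siCtrl and 997, 827 and 799 FPKM in siPRMT1 libraries, and its groups overlapped (-0.13, adjusted p = 0.34). Oxidation of fatty acids in mitochondria had 0 of 17 genes called, with 14 negative and a median of -0.17.

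Of 18 genes of insulin signalling and glucose uptake 5 were called lower and 1 higher. Slc2a1, the basal glucose transporter, was at 77.04, 85.2 and 79.3 FPKM in siCtrl and 47.1, 47.8 and 52.1 FPKM in siPRMT1 libraries (log2 fold change -0.72, SE 0.073, adjusted p = 1.3e-05). The insulin-regulated transporter Slc2a4 was still below 2 FPKM in every library and fell by 0.56 (adjusted p = 0.0115), a call kept by 5 of 6 fits without 1 library. Hk2, the hexokinase of insulin-sensitive tissues, and Gys1, glycogen synthase, fell by 0.62 and 0.58, and Pfkfb3, which makes the activator of phosphofructokinase, by 0.60. Grb10, an adaptor that restrains the insulin receptor, was the member called higher (0.57), in 3 of 6 fits without 1 library. Along glycolysis and the hypoxia response 5 of 22 genes were called lower, 0 higher, and in 18 of 22 all siPRMT1 libraries lay below all siCtrl libraries (median -0.33). Egln3, an oxygen-sensing prolyl hydroxylase, went from 48.9, 50.4 and 55.1 to 27.5, 25.2 and 27.3 FPKM (log2 fold change -0.96, SE 0.075, adjusted p = 1.5e-06). Ndrg1, a stress-responsive protein induced by hypoxia, fell by 1.24, the lactate exporter Slc16a3 by 0.84, the mitophagy receptor Bnip3 by 0.64 and Gpi1, phosphoglucose isomerase, by 0.54. Ldha, lactate dehydrogenase, had -0.34 (adjusted p = 0.0084), under the fold threshold. At the entry to the citric acid cycle the inhibitory kinases Pdk1 and Pdk2 fell by 0.85 and 0.62 and were the only called genes of 25. The respiratory chain had 0 of 43 subunits called, with a median of -0.04. Of 19 peroxisomal genes 1 was called lower, the thiolase Acaa1b (-1.29), and in 16 all siPRMT1 libraries lay below all siCtrl libraries (median -0.27).

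Sterol genes were on the lower side as well. Of 23 genes of cholesterol synthesis and SREBP2 targets, 5 were called lower and 0 higher, 22 were negative, and in 19 all siPRMT1 libraries lay below all siCtrl libraries (median -0.33). The count of 5 dropped to 2 when siPRMT1 replicate 1 was left out. Insig1 (chromosome 5, 28071412 to 28078662), which holds SREBP precursors in the endoplasmic reticulum and is itself an SREBP target, was at 55.9, 55.5 and 58.9 FPKM in siCtrl and 32.7, 33.1 and 33.2 FPKM in siPRMT1 libraries (log2 fold change -0.79, SE 0.066, adjusted p = 2.3e-06). The 3 siPRMT1 libraries were nearly equal to each other. Cyp51, lanosterol demethylase, and the mevalonate pathway enzyme Mvd fell by 0.67 and 0.57. Of the transporters, Abca1, Abcg1 and Scarb1, which move cholesterol out of or into the cell, fell by 0.57, 0.65 and 0.54. Without siPRMT1 replicate 1, 2 of the 4 falls on this list of 16 lipid transport genes were called. On the same list the lipocalin Apod (0.88) and the transporters Abca9 (1.09) and Abca8a (0.87) rose, the last pair from levels below 0.4 FPKM.

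RefSeq promoter windows of 300 bases (250 before to 50 after the start, GRCm38.p6) were available for 10086 of the tested genes and gave 12950 promoters. Both strands were searched for the CCAAT box (CCAAT), the E-box (CACGTG), the C/EBP-ATF element (TGATGNAA), the C/EBP site (TTGCNNAA) and the AP-1 site (TGANTCA), none of which lies within another. The CCAAT box stood in 37.5% of all promoters, in 33.6% of those of lower and in 38.5% of those of higher genes. It stood in 16 of 19 promoters of the cholesterol list (84.2%) and in 12 of 18 of fatty acid synthesis (66.7%), and also in 15 of 16 of the ER chaperone list (93.8%), where 1 of 18 genes was called. E-boxes stood in 9.71% of all promoters, 9.21% of those of lower and 4.96% of those of higher genes, and C/EBP sites in 8.58%, 11.7% and 13.4%. AP-1 sites stood in 5.34%, 9.02% and 11.4%. The promoters of Insig1 and Fasn are shown as examples of the sterol and fatty acid lists and that of Trib3 as an example of the ATF4 list described next. Capitals mark the motif letters, of which Insig1 (chr5:28071162-28071461, plus strand) holds 1 CCAAT box and 1 E-box, Fasn (chr11:120824498-120824797, minus strand) 3 CCAAT boxes, 2 of them overlapping on opposite strands, and Trib3 (chr2:152344011-152344310, minus strand) 1 C/EBP-ATF element. A match is a description of the letters and no evidence of binding.
Insig1: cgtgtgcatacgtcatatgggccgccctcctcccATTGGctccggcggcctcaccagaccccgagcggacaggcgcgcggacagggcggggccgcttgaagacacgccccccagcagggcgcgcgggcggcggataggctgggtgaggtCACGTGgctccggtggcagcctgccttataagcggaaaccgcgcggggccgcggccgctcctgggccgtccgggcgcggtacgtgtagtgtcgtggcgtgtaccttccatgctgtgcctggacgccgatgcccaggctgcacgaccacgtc
Fasn: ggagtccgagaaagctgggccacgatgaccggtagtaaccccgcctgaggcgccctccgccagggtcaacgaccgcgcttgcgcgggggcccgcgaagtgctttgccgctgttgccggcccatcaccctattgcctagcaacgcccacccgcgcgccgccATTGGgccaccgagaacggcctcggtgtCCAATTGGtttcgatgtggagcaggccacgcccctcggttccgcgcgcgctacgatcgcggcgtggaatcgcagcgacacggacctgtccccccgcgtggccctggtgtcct
Trib3: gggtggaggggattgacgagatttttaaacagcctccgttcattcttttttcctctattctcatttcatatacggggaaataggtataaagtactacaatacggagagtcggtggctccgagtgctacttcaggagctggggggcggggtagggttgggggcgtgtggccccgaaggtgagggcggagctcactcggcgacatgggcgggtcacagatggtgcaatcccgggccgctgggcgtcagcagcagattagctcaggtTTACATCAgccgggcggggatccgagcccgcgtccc

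The ATF4 list holds the genes that amino acid shortage and endoplasmic reticulum stress switch on through the transcription factor ATF4. At day 3, 5 of 15 were called lower and 0 higher, 14 were negative, and in 12 all siPRMT1 libraries lay below all siCtrl libraries (median -0.37). Trib3 (chromosome 2, 152337425 to 152344060), a pseudokinase that restrains AKT and ATF4, was at 41.96, 42.7 and 40.9 FPKM in siCtrl and 20.8, 20.8 and 23.4 FPKM in siPRMT1 libraries (log2 fold change -0.96, SE 0.075, adjusted p = 1.5e-06). Nupr1, a stress-induced chromatin protein, went from 56.9, 69.6 and 60.1 to 33.2, 34.5 and 37.3 FPKM (log2 fold change -0.83, SE 0.096, adjusted p = 3.5e-05). Ddit4, the mTORC1 inhibitor REDD1, and Chac1, a glutathione-degrading enzyme, fell by 0.66 and 0.65. Atf4 itself had -0.13 (adjusted p = 0.219). At day 1 the list stood on the other side of 0, with a median of 0.56 and 8 genes called higher, among them Trib3 at 1.57 and Chac1 at 1.24. The difference between the days, tested as the interaction of siRNA and day over all 12 libraries, was called in the negative direction for 12 of the 15 genes (3.47% of all genes tested) and in the positive direction for 0. Without siCtrl replicate 3 of day 1 the count was 13, and the day 1 median was 0.63. In Trib3 it was -2.50 on the log2 scale (adjusted p = 6.2e-08), the smallest p of the interaction among the genes called at day 3. Herpud1, of the ER-associated degradation machinery, had the same signs (0.57 at day 1 and -0.55 at day 3) and was the only called gene of 18 on the ER chaperone list at day 3. The C/EBP-ATF element, which stood in 2.25% of all promoters, stood in 6 of 15 promoters of the ATF4 list (40%), in 2.50% of the promoters of lower genes and in 4.37% of those of higher genes. None of 20 aminoacyl-tRNA synthetases and none of 12 serine and one-carbon enzymes, which ATF4 also drives, was called at day 3. The element nonetheless stood in 5 of 12 promoters of the synthetase list (41.7%), and in 0 of 11 of the serine and one-carbon list.

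**Figure D3:**
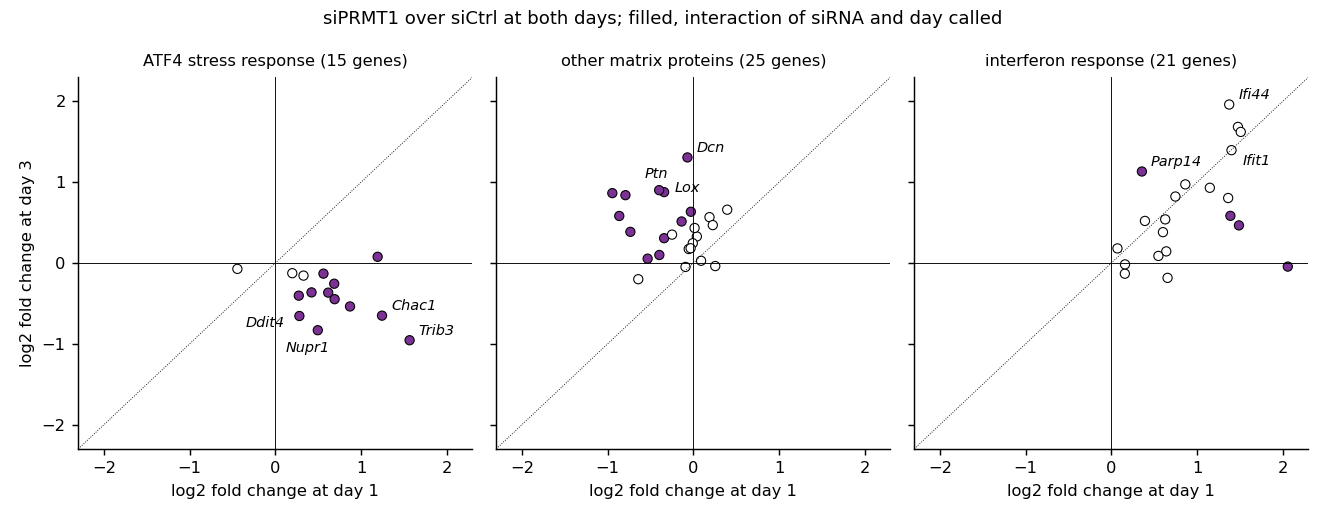
Log2 fold change of siPRMT1 over siCtrl at day 1 (x axis) and day 3 (y axis) for all tested members of 3 gene lists; the 2 axes share no library. The dotted diagonal marks equal effects, and filled points are genes with a called interaction of siRNA and day. ATF4 genes lie mostly to the lower right of the diagonal (positive at day 1, negative at day 3), matrix proteins to its upper left, and interferon genes mostly in the upper right quadrant, positive at both days.

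Clock genes were lower in part, with 4 of 16 called lower and 0 higher (median -0.31). Bhlhe40, the repressor DEC1, was at 63.96, 57.2 and 60.8 FPKM in siCtrl and 34.9, 32.5 and 34.9 FPKM in siPRMT1 libraries (log2 fold change -0.84, SE 0.07, adjusted p = 2.3e-06), without overlap. The nuclear receptor Rora fell by 0.72, and the core activator Arntl had -0.04 (adjusted p = 0.723). Of 13 glucocorticoid-induced genes 1 was called, Hsd11b1, which regenerates active glucocorticoid (-0.62), with Fkbp5 at 0.11, and 0 of 10 cAMP-induced genes were called.

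Many of the genes that rose encode parts of the extracellular matrix. Among 25 tested matrix proteins other than collagens, 10 were called higher and 0 lower, and in 17 all siPRMT1 libraries lay above all siCtrl libraries, against 16.8% over all genes (median 0.39). Decorin, Dcn (chromosome 10, 97479500 to 97518163), a small proteoglycan that binds collagen and growth factors, was at 38.97, 33.99 and 32.8 FPKM in siCtrl and 85.4, 95.3 and 81.6 FPKM in siPRMT1 libraries (log2 fold change 1.31, SE 0.081, adjusted p = 2.9e-07), and had the smallest p of all higher genes. Pleiotrophin, Ptn, a heparin-binding growth factor of preadipocytes, went from 109, 103 and 101 to 201, 199 and 188 FPKM (log2 fold change 0.90, SE 0.067, adjusted p = 9.5e-07). Lox, the oxidase that crosslinks collagen, went from 29.8, 25.96 and 25.4 to 48.5, 52.8 and 48.2 FPKM (log2 fold change 0.88, SE 0.074, adjusted p = 2.3e-06). In all 3 genes the groups were far apart relative to the spread within them. The small proteoglycans Lum (0.84), Ogn (0.86) and Aspn (0.58), the microfibril protein Fbn1 (0.57) and the TGF-beta activator Thbs1 (0.63) were called higher too. The secreted glycoprotein Fstl1, which is on none of the lists, rose by 0.68 from 127, 125 and 127 FPKM.

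Matrix enzymes rose in part, with 4 of 20 called higher and 0 lower, among them the gelatinase Mmp2 (0.61), its inhibitor Timp2 (0.70) stromelysin Mmp3 (0.81) and the collagenase Mmp13 (0.93). Of 20 collagens 2 were called higher, Col12a1 (0.59) and Col11a1 (0.75), and 1 lower, the basement membrane Col15a1 (-0.79). The fibrillar Col1a1 (0.15, adjusted p = 0.281), Col1a2 (0.46, adjusted p = 3.5e-04) and Col3a1 (0.43, adjusted p = 3.5e-04) were not called. Adhesion receptors went both ways: 4 of 21 were called higher, 2 without siCtrl replicate 3, including Pcdh18 (0.89) and Vcam1 (0.99), and 3 lower, Mcam (-0.63), Nrcam (-1.54) and the endothelial cadherin Cdh5 (-1.20), which 2 of 6 fits without 1 library still called. Of 18 integrins and laminins, 2 rose, the integrin Itga8 (1.75) and the laminin chain Lama2 (0.70), and 2 fell, the laminin receptors Itga7 (-0.99) and Itga6 (-0.55). Itga8 either averaged below 1 CPM or had overlapping groups, so its value is less certain.

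The mixed list of preadipocyte markers and anti-adipogenic regulators had 4 of 20 genes called higher and 0 lower (median 0.21). Ly6a, the surface antigen Sca-1, was at 24.6, 25.1 and 31.96 FPKM in siCtrl and 54.5, 56.9 and 48.8 FPKM in siPRMT1 libraries (log2 fold change 0.96, SE 0.104, adjusted p = 2.0e-05). Snai2, a zinc-finger repressor of epithelial genes, went from 6.8, 6.77 and 6.67 to 11.4, 12.5 and 12.4 FPKM (log2 fold change 0.84, SE 0.088, adjusted p = 1.6e-05). The platelet-derived growth factor receptor Pdgfra rose by 0.60. In these 3 genes the groups did not overlap. Dlk1, the preadipocyte factor Pref-1, had -0.07 and overlapping groups (adjusted p = 0.699). Of 20 actin and contractile genes 2 were called higher, the matricellular Cyr61 (0.59) and the myosin light chain Myl9 (0.66), while in 14 all siPRMT1 libraries lay above all siCtrl libraries. Of 21 angiogenesis genes 8 were called higher and 0 lower (median 0.39), a count that was 4 without siCtrl replicate 3. Vegfc, a lymphatic growth factor, rose by 0.67. Nrp1, a co-receptor of VEGF and semaphorins (0.52), and the guidance cue Slit2 (0.50) were just past the fold threshold. The fibroblast or preadipocyte marker sum given above was higher in all siPRMT1 libraries too, and its part in the rise of these groups was not tested.

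**Figure D4:**
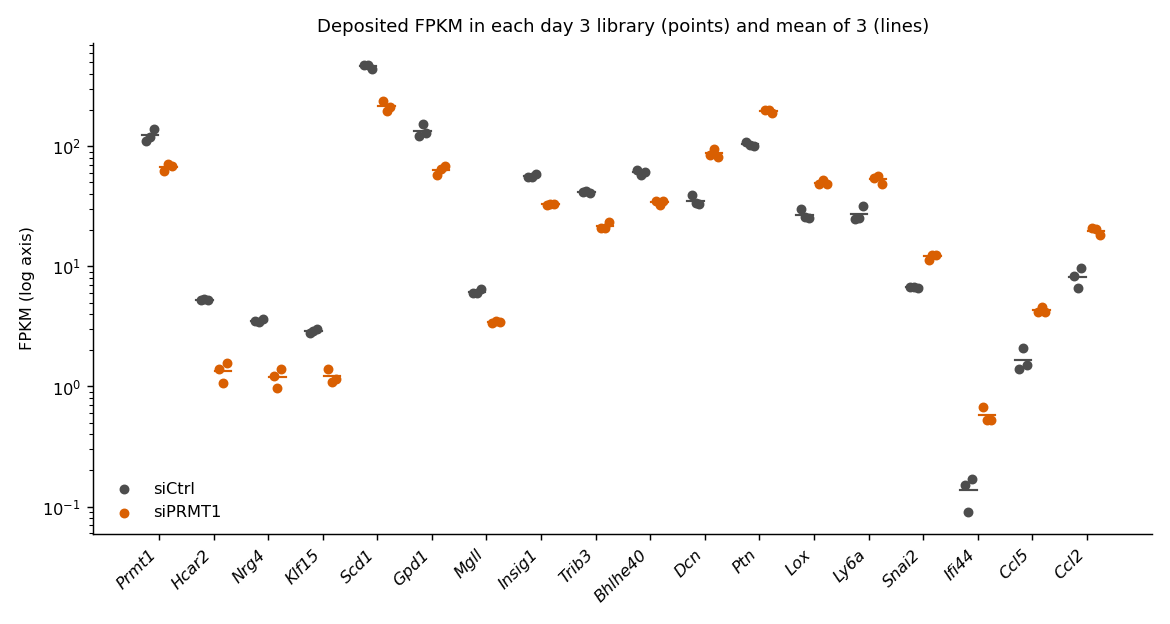
Deposited FPKM (log axis) of 18 genes in each of the 3 siCtrl (grey) and 3 siPRMT1 (orange) libraries at day 3, with a line at the mean of 3. In each gene all 3 libraries of a group lie on the same side of all 3 of the other, lower in siPRMT1 from Prmt1 to Bhlhe40 and higher from Dcn to Ccl2. Levels range from 0.09 FPKM for Ifi44 in siCtrl replicate 2 to over 400 FPKM for Scd1.

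Wnt and TGF-beta genes showed no common direction. In the Wnt list 1 of 23 genes was called higher, the secreted frizzled-related protein Sfrp2 (0.83), and 2 lower, the nuclear effectors Lef1 (-0.65) and Tcf7 (-1.12). Axin1, which scaffolds the β-catenin destruction complex and which the study followed as a protein, was at 31.1, 32.1 and 33.3 FPKM in siCtrl and 29.1, 32.5 and 32.5 FPKM in siPRMT1 libraries, with overlapping groups (-0.04, adjusted p = 0.716). Ctnnb1, β-catenin, had 0.22 (adjusted p = 0.0436). In the TGF-beta list 1 of 23 genes was called, the latent TGF-beta binding protein Ltbp1 (0.69), and the ubiquitin ligase Smurf2 had -0.01 (adjusted p = 0.916).

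Interferon-stimulated genes were higher in part and from low levels. Of 21 tested, 10 were called higher and 0 lower, and in 15 all siPRMT1 libraries lay above all siCtrl libraries (median 0.54). Ifi44, an interferon-induced cytoplasmic protein, rose furthest of all genes that reached 1 CPM on average and whose groups were apart, from 0.15, 0.09 and 0.17 to 0.67, 0.53 and 0.53 FPKM (log2 fold change 1.96, SE 0.281, adjusted p = 2.3e-04). Ifit1, an antiviral RNA-binding protein, went from 0.47, 0.60 and 0.56 to 1.56, 1.42 and 1.31 FPKM (log2 fold change 1.40, SE 0.176, adjusted p = 7.1e-05). Oasl2 and Parp14 rose by 1.68 and 1.13, and the guanylate-binding GTPases Gbp3 and Gbp2 by 1.62 and 0.97. At day 1, 14 genes of the list were called higher and its median was 0.75 (16 genes and 0.76 without siCtrl replicate 3 of day 1). Between the days, 1 of the 21 genes had a called positive and 3 a called negative interaction (1 and 4 without that library). In Ifi44, Ifit1 and Oasl2 the difference between the days was not called (interaction 0.61, 0.01 and 0.23, adjusted p = 0.423, 0.981 and 0.763). Among 8 chemokines 4 were called higher and 0 lower (median 0.55). Ccl5, a T cell attractant induced by viral RNA sensing, was at 1.4, 2.11 and 1.5 FPKM in siCtrl and 4.18, 4.61 and 4.19 FPKM in siPRMT1 libraries (log2 fold change 1.40, SE 0.215, adjusted p = 4.0e-04). The monocyte attractants Ccl2 and Ccl7 rose by 1.25 and 0.67, and the interferon-induced Cxcl10 by 0.96. Complement had 2 of 8 genes called higher, the proteases C1s1 (0.78) and Masp1 (0.55), a count that was 1 without siCtrl replicate 1 and 3 without siPRMT1 replicate 1, and its most abundant member C3 had -0.14 (adjusted p = 0.178). Macrophage markers summed to between 3.91 and 4.52 FPKM in siCtrl and between 4.16 and 4.65 FPKM in siPRMT1 libraries, 4 of 8 of them passed the filter with 0 called, and Ptprc had 0 counts throughout. No MHC class I presentation gene of 9 was called.

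Of 24 S phase and 24 mitosis genes 0 were called, with medians of 0.03 and 0.05, and Ccna2 was at 46.6, 42.4 and 41.03 FPKM in siCtrl and 45.6, 44.6 and 43.8 FPKM in siPRMT1 libraries (0.04, adjusted p = 0.749). Ccnd1, cyclin D1, was at 40.8, 41.4 and 37.05 FPKM in siCtrl and 55.3, 60.5 and 62.4 FPKM in siPRMT1 libraries (log2 fold change 0.57, SE 0.073, adjusted p = 7.5e-05). Ccne1, cyclin E1, had -0.05 (adjusted p = 0.671). The CDK inhibitor Cdkn1a had -0.16 (adjusted p = 0.121). Of 19 genes on the list of p53 and its targets 3 rose, the kinase Plk2 (0.91) and the death receptors Eda2r (0.77) and Fas (0.73), while Trp53 had 0.08 (adjusted p = 0.459) and the stress-induced sestrins Sesn1 and Sesn2 0.23 and -0.13 (adjusted p = 0.0531 and 0.251). The transcriptional coactivator Ppargc1a rose by 0.55 from below 0.5 FPKM (adjusted p = 0.0117). None of 35 cytosolic ribosomal proteins, 23 ribosome biogenesis factors and 25 hnRNP and SR splicing proteins was called, although 22 of the last 25 had a positive log2 fold change (median 0.11).

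Several of the top higher genes stand on none of these lists. Ces1a, a carboxylesterase, rose from 0.26, 0.29 and 0.42 to 1.06, 1.56 and 1.19 FPKM (log2 fold change 1.93, SE 0.233, adjusted p = 4.8e-05), and Akr1c14, an aldo-keto reductase, from 1.53, 1.14 and 1.54 to 3.72, 3.93 and 3.25 FPKM (log2 fold change 1.35, SE 0.139, adjusted p = 1.5e-05). The endopeptidase Phex rose by 1.42 and the neuropeptide Y receptor Npy1r by 1.37, both from below 0.3 FPKM. Clca3a1 and the protease inhibitor Serpina3g rose by 1.06 and 1.108 and were among the 5 higher genes with the smallest p. Ces1a, Ces1f, Akr1c14, Clca3a1, Serpina3g, Gbp3, Scd3 and C1s1 have close relatives in the mouse genome, and how reads shared with such copies were counted is not given in the sources used here, so their values are uncertain.

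Few genes were called in the same direction at both days, but day 1 had fewer calls than day 3. A gene without a call at day 1 may still have changed there. Of the 399 genes higher at day 3, of which 389 passed the filter at day 1, 30 were also called higher at day 1, which is 7.52% of the day 3 list and 11.2% of the 267 genes (1.95% of those tested) higher at day 1. Of the 534 lower at day 3, of which 351 passed the filter at day 1, 29 were also called lower at day 1, 5.43% of the day 3 list and 13.2% of the 220 genes (1.61%) lower at day 1. Calls in opposite directions were of the same order, with 19 day 3 higher genes called lower and 26 day 3 lower genes called higher at day 1. Across the 13225 genes tested at both days, which are not independent replicates, Pearson's r of the log2 fold changes was 0.02 and Spearman's rho -0.04. Without siCtrl replicate 3 of day 1, day 1 had 504 higher and 369 lower calls. Of these, 39 and 32 were called in the same direction at day 3, and 28 higher and 33 lower genes of day 3 were called the other way at day 1. Pearson's r was then -0.06 and Spearman's rho -0.14. The interaction of siRNA and day was called for 697 genes in the positive (4.77% of 14612) and for 507 in the negative direction (3.47%), including a positive one in 212 of the 399 genes higher at day 3 and a negative one in 162 of the 534 lower. These 399 and 534 genes were picked by their day 3 change, which is itself part of the interaction. Their higher shares are therefore partly built in by the selection. The negative count of 507 depended on single libraries: it was 1005 without siCtrl replicate 3 of day 1, 305 without siPRMT1 replicate 3 of day 1 and 310 without siCtrl replicate 2 of day 3. Of the groups above, matrix proteins other than collagens had 12 of 25 genes with a called positive interaction and 0 with a negative one, with a median of -0.09 at day 1 and 0.39 at day 3 (10 of 25 without siCtrl replicate 3 of day 1). Adipokines had 6 of 13 with a called negative interaction (7 without that library) and 0 with a positive one. In the lipid lists day 1 medians were negative as well, from -0.09 in fatty acid synthesis to -0.44 in uptake and binding. Called interactions were 1 negative of 19 in fatty acid synthesis, 1 negative of 13 in triglyceride synthesis, 3 negative and 1 positive of 11 among lipid droplet proteins, 1 negative and 1 positive of 12 among lipases, and 2 positive of 14 in uptake and binding. Without that library the negative counts were 4, 2, 3, 2 and 0, and the positive ones were the same.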

How the data were processed

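The deposited tables hold, per the file headers, whole-number read counts per gene and FPKM for 12 polyadenylated RNA libraries. According to the submitters' processing notes and the methods of the study, the authors used cutadapt 1.11 as the read filter and HISAT2 2.1.0 as the aligner. The notes also name RSEM 1.2.6 and mm10 (GRCm38). The role of RSEM, the strand setting, the gene counter and the treatment of multimapping reads are not given in the sources used here. The deposited FPKM values were recomputed from the counts and gene lengths of the authors and differed by no more than 0.005. Of the gene names, 2266 carry a number suffix and hold 0.612% of the counts.

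Libraries were grouped by their labels. Counts were filtered with filterByExpr, scaled by TMM and tested in edgeR 4.0.16 (R 4.3.3, limma 3.58.1) with the quasi-likelihood F-test, siPRMT1 against siCtrl at day 3, with Benjamini-Hochberg adjustment over all genes that passed the filter. The interaction of siRNA and day was fitted to all 12 libraries. Each value is given per library, n = 3 per group. The SE beside a log2 fold change is the size of that change divided by the square root of the F statistic. It was thus derived from the test and not fitted separately. The test was checked on simulated counts. FPKM served for levels only. Promoters are RefSeq windows on GRCm38.p6. Python 3.11.15 with pandas 2.3.3 made the summaries and matplotlib 3.10.9 the figures.

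The members and gene lists were chosen with earlier results of these data known. By rule the named genes were Prmt1 and its family; of the called genes that reached 1 CPM on average without overlap, 10 per direction by size of change; the 5 higher and 5 lower genes of lowest p; in each list its opening gene and up to 3 called genes per direction by p; the 10 genes with the highest FPKM; the 5 genes per direction with the smallest interaction p; and the genes the study names for its sequencing. Unplaced and predicted genes were not described, and some items are not reported here. Further called members of the lists, given by their log2 fold changes only, were named after their values were seen. Alternatives were DESeq2 1.42.0, RLE scaling, other filters, no fold threshold, all 12 libraries in 1 model, thinned counts, a replicate block and leaving out each library. Summing suffixed names and fitting day 1 without its library that stood apart were chosen after seeing the data.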

Additional observations from a re-analysis of the deposited data

Results flagged for a closer look

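Of the genes named by rule and described above, 65 responded differently to the knockdown at day 3 and at day 1 by a test of the difference itself. Further list members, named after their values were seen, are not among those counted here. Some genes named by rule but not described above, such as Ddx4, Zcchc5, Cyp2ab1 and Aars, are not counted either, although their difference was called too. The test was the interaction of siRNA and day (log2, day 3 minus day 1, edgeR's quasi-likelihood test with Benjamini-Hochberg adjustment over 14612 genes, same thresholds as for the calls), and 34 of the differences were positive and 31 negative. Without siCtrl replicate 3 of day 1, which stood apart from its group, all 65 kept their sign and 63 their call. Ltbp1 and Abcg1, at 0.48 each, no longer passed the fold threshold. Many of these genes were named because they were called at day 3, so the count is no measure of how common such differences are.

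The lists of matrix proteins, matrix enzymes, collagens, laminins and adhesion molecules held 13 of them with a positive difference: Dcn 1.39, Ptn 1.32, Lox 1.24, Mmp3 2.08, Mmp2 0.95, Timp2 0.91, Col12a1 0.86, Col11a1 0.66, Col1a2 0.69, Col3a1 0.56, Lama2 1.36, Vcam1 1.07 and Pcdh18 0.98. The difference was negative in the adhesion molecule Mcam (-0.67) and the integrin Itga7 (-1.0). Genes of the preadipocyte, angiogenesis, contractile, Wnt, TGF-beta and p53 lists had positive differences: Pdgfra 0.86, Ly6a 1.2, Snai2 1.02, Vegfc 0.77, Nrp1 0.52, Cyr61 0.94, Sfrp2 1.07, Ltbp1 0.58, Fas 1.09 and Sesn1 0.58. On the p53 list Sesn2 had a negative one (-0.67).

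Stress genes of the ATF4 and chaperone lists had negative differences: Trib3 -2.50, Chac1 -1.88, Nupr1 -1.31, Ddit4 -0.92 and Herpud1 -1.10. Genes of glucose use, hypoxia and the clock were negative too: Hk2 -1.0, Slc2a1 -1.01, Egln3 -0.82, Bnip3 -0.57, Gpi1 -0.55, Pdk1 -0.54 and Bhlhe40 -0.84. So were the lipid and sterol genes Scd1 -0.82, Gpd1 -1.40, Hilpda -0.79, G0s2 -1.05, Mgll -1.22, Insig1 -0.77 and Scarb1 -0.65, and the receptors, hormones and other genes with large falls at day 3: Hcar2 -2.92, Gpr35 -1.88, Car12 -2.46, Nrg4 -1.89, Apln -1.92, Ppp1r3b -2.27, Sema3g -1.0, Gramd1b -1.33 and Klf15 -1.34. In Hcar2, Gpr35, Car12 and Klf15 the day 1 libraries alone did not pass the filter on low counts. Gpd1, G0s2, Mgll, Nrg4 and Ppp1r3b passed it but were low at day 1 and not called there. Their siCtrl means at day 1 were 0.52, 0.74, 0.18, 0.26 and 0.15 FPKM, so their day 1 effects are uncertain.

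Positive differences were also seen in the immune genes C1s1 1.40 and Parp14 0.79, in the lipid transporters, the lipocalin and the carboxylesterase Apod 1.28, Abca9 1.38, Abcg1 0.55 and Ces1f 0.65 and in the remaining named genes Clca3a1 1.52, Serpina3g 1.70, Akr1c14 1.78, Fstl1 0.94 and Npy1r 0.96. Abcg1 and Ces1f were lower at both days and less so at day 3 (-1.18 and -1.13 at day 1, -0.65 and -0.51 at day 3).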

How the results depend on the processing

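The counts of 399 higher and 534 lower genes were 298 and 418 with DESeq2, 399 and 538 with RLE scaling, 517 and 561 without the filter, 372 and 482 with at least 10 counts in every library, 351 and 497 with all 12 libraries in 1 model, 366 and 471 after thinning to equal depth and 405 and 526 with suffixed names summed. Without the fold threshold 1058 genes were higher and 1255 lower, and 1123 had a more positive and 676 a more negative effect at day 3 than at day 1. Leaving out 1 library gave 322 to 400 higher, 439 to 574 lower, 504 to 902 more positive and 305 to 1005 more negative genes. The count of more negative genes was 1005 without siCtrl day 1 replicate 3, 305 without siPRMT1 day 1 replicate 3 and 310 without siCtrl day 3 replicate 2. The cause was not tested. No gene named by rule turned its direction. With DESeq2, 124 of the 129 genes named by rule that were called and could be compared kept their call.

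The replicate numbers were shared across groups. Same-numbered day 3 libraries correlated in their deviations at 0.20, 0.10 and -0.02, and libraries with different numbers at -0.23 to 0.17. With 3 libraries per group these values cannot decide whether the numbers pair the samples. With the number as a block, 426 genes were higher, 548 lower, 735 more positive and 542 more negative.

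Total counts limit what could be seen: a gene at 0 counts may be expressed at up to 0.115 to 0.198 CPM, and intervals of this kind cover counting error only. Of the called genes, 363 higher and 462 lower ones reached 1 CPM on average.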
